A study of Mus musculus with 8 samples.

Results

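Spin1 and 9 other genes for readers of histone H3 lysine 4 methylation (H3K4 methylation) were followed in single mouse MII oocytes, the ovulated egg as it waits for fertilisation in its second meiotic metaphase. The 10 genes, Spin1, Spin4, Ing1, Ing2, Ing3, Ing4, Ing5, Taf3, Bptf and Phf2, were a list of names, matched by symbol to 10 of the 37224 genes in the count table. Of the 10, 9 passed the filter on low counts, and Ing4 did not. The RNA of 8 oocytes was sequenced, 4 from superovulated Setd1bGdf9cKO females and 4 from control females. Setd1bGdf9cKO is a conditional knockout of Setd1b, an H3K4 methyltransferase, whose name refers to Gdf9, a gene of growing oocytes commonly used to direct deletion there. What the controls carry, the strain, the age and the number of females per group are not given in the sources used here, so each p-value below rests on the spread among these 8 single cells.

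Readers are proteins that bind a histone tail through a folded pocket, and many of them recognise methylated lysine 4 of histone H3, a mark found at active promoters. Spindlins do so through Tudor-like repeats, and the ING proteins, TAF3, BPTF and PHF2 through a PHD finger, a small zinc-binding fold. The bound protein usually belongs to a larger machine: a deacetylase, an acetyltransferase, the promoter-binding factor TFIID or a nucleosome remodeller. Spin1 was first known in the mouse as an abundant maternal transcript whose protein sits on the meiotic spindle, and mouse oocytes without it fail to resume meiosis normally. MII oocytes make little or no new RNA, so their transcripts are a store laid down earlier.

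Levels are given as counts per 1000000 counts (CPM), scaled by library total and by a factor for RNA composition (TMM), and, where genes are compared with each other, as CPM per kilobase of gene. The libraries held 9488899 to 11313502 counts in knockout and 11029602 to 13519404 in control oocytes. Composition factors also differed by group, at 1.07 to 1.22 in knockout and 0.799 to 0.946 in control libraries, and 11190 to 12153 genes had at least 10 counts in knockout against 9913 to 10714 in control libraries. Setd1b itself had 4.43, 5.06, 2.97 and 3.54 CPM in knockout and 10.7, 12.8, 9.24 and 10.9 CPM in control oocytes (log2 fold change -1.44 ± 0.41 (SE), edgeR adjusted p = 0.0221). That call was lost without knockout replicate 3 (adjusted p = 0.0519), without control replicate 2 (adjusted p = 0.0540) and with library totals as the sole scaling (adjusted p = 0.0895). The 12 oocyte markers summed to 15052 to 19091 CPM in knockout and 16917 to 22710 CPM in control libraries. Dppa3 (mean 6821 CPM in knockout and 8338 CPM in control) and Gdf9 (3591 and 4863 CPM) made up most of that sum. Single oocyte markers differed more: Zp1, Zp2 (826 and 102 CPM), Zp3 and Nlrp5 (1128 and 356 CPM) rose, and Ooep and Oosp1 (1280 and 3451 CPM) fell. The 18 cumulus and granulosa markers summed to 119.5 to 192 CPM in knockout and 221 to 253.5 CPM in control libraries, and 6 of them, including the granulosa factor Foxl2, had no count in any library. Most of this sum came from Esr2 (mean 63.2 CPM in knockout and 110 CPM in control) and Cyp19a1 (49.3 and 88.8 CPM). Col4a1 for one was higher in knockout (8.7 against 6.4 CPM). The 18 markers of blood, stroma and oviduct summed to 33.6 to 57.3 CPM in knockout and 96.6 to 124 CPM in control libraries, with 8 at no count. Here most of the sum came from Pecam1 (mean 33.8 CPM in knockout and 60.0 CPM in control) and Epcam (2.98 and 32.9 CPM). Cd68 was higher in knockout (7.90 against 1.35 CPM). Of the markers tested, 4 rose and 2 fell among 12 for oocytes, 0 rose and 2 fell among 6 for cumulus and granulosa cells, and 1 rose and 2 fell among 4 for blood, stroma and oviduct. The part of these differences in the results was not tested. All levels are relative to the RNA counted in a library, so a change in total RNA per oocyte cannot be told apart from them.

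Spin1 was the leading reader transcript of the egg and fell in knockout oocytes. The gene (ENSMUSG00000021395) lies on chromosome 13 at 51100880 to 51152546 (mm10) and had 6073, 6885, 10935 and 7394 CPM in the 4 knockout oocytes, replicates 1 to 4 in this order, against 22571, 18151, 16789 and 25467 CPM in the 4 control oocytes. Each knockout oocyte lay below each control oocyte, and the highest knockout value, in replicate 3, still stood well under the lowest control value. The mean was 7822 ± 2146 CPM in knockout and 20745 ± 4000 CPM in control oocytes (SD, n = 4 each). This amounts to 37.7% of the control level, a log2 fold change of -1.41 ± 0.21 (SE; knockout over control; adjusted p = 0.000887, edgeR's quasi-likelihood test with Benjamini-Hochberg adjustment over 11066 genes). At an adjusted p under 0.05, 25.8% of all tested genes differed, 13.6% upward and 12.2% downward.

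The fall was also seen without any composition factor. Spin1 took 0.737%, 0.806%, 1.17% and 0.836% of all counts in knockout libraries and 1.86%, 1.68%, 1.59% and 2.03% in control libraries. The means were 0.886% ± 0.192 in knockout and 1.79% ± 0.198 in control libraries (SD, n = 4 each; p = 0.0286 by exact permutation of the libraries, two-sided, which is the smallest value the design can give). Spin1 stayed among the leading transcripts after the fall: per kilobase it ranked 16th to 22nd of all genes in knockout libraries and 7th to 10th in control libraries. Of the counts of all 10 readers, Spin1 held 80.5% to 88.0% in knockout libraries and 89.8% to 93.2% in control libraries. None of its exons overlapped another gene in the count table, and 1.11% of the 75-base stretches of its transcripts recurred in other genes, among them Spin3-ps, a spindlin pseudogene.

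**Figure D1:**
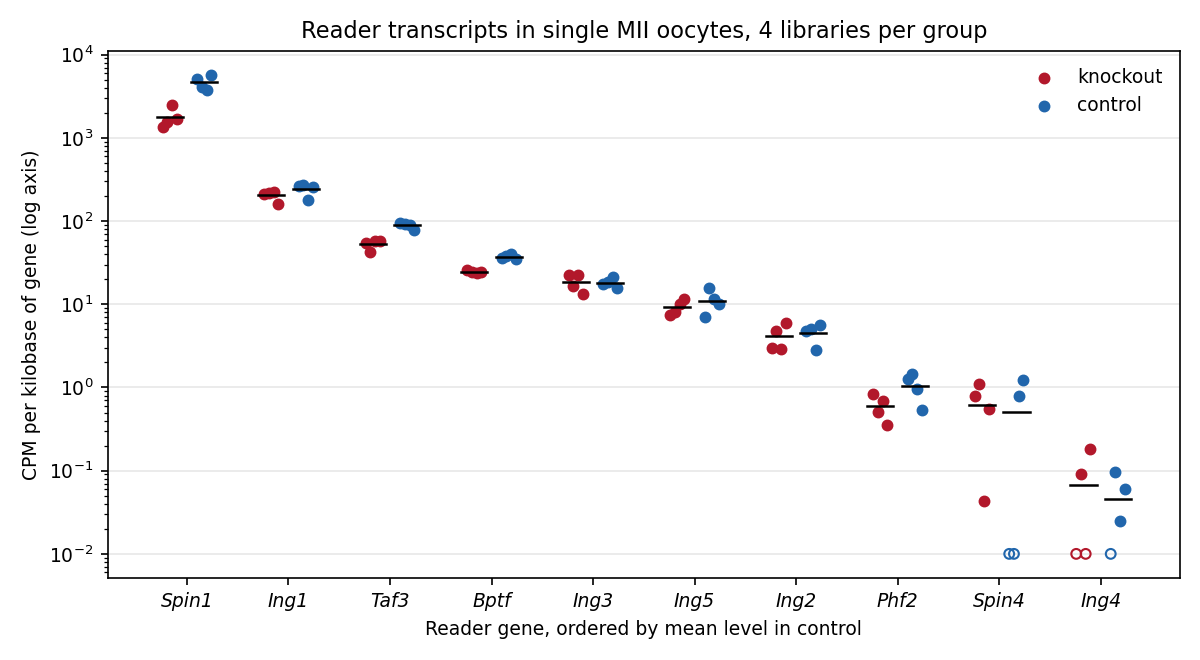
Level of each reader gene in CPM per kilobase (vertical log axis) in each oocyte library, knockout in red to the left of control in blue, with a black bar at the group mean; open circles at the bottom mark libraries with no count. Spin1 stands at 1370 to 2466 CPM per kilobase in knockout and 3786 to 5744 in control libraries, far above the other readers, while Spin4 and Ing4 reach 0 in some libraries.

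Spin4, the X-linked relative of Spin1, was close to absent. It had 3.31, 4.61, 0.180 and 2.33 CPM in knockout oocytes and 0, 0, 3.30 and 5.11 CPM in control oocytes. The groups overlapped over their whole range, with 2 control libraries at no count and the other 2 among the highest values of all. These values rest on 132 counts in the knockout and 91 counts in the control libraries. The log2 fold change was 0.31 with a 95% interval from -2.65 to 3.28 (adjusted p = 0.891), so that large differences in either direction were not detectable at this depth, and the sign changed without knockout replicate 2 or control replicate 1 or 2. Of the other spindlin genes, Spin2c, Spin2d, Spin2e, Spin2f and Spin2g had no count in any library. Spindoc, whose protein docks on SPIN1, had 11.8 ± 5.77 CPM in knockout and 17.8 ± 8.84 CPM in control oocytes (SD, n = 4 each; adjusted p = 0.396).

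The ING genes spanned a wide range of levels and none of them passed the test. Ing1, whose protein brings the SIN3-HDAC deacetylase to methylated H3K4, was the second reader in abundance, with 597.8, 613.5, 622.2 and 453.3 CPM in knockout and 743.2, 760.3, 510.0 and 717.5 CPM in control oocytes. In each group 1 library stood low, knockout replicate 4 and control replicate 3, and the groups overlapped through control replicate 3. The log2 fold change of Ing1 was -0.26 with a 95% interval from -0.64 to 0.13 (adjusted p = 0.316). With a trend in gene length removed from each library it was -0.75, past the threshold (adjusted p = 0.0182), whereas under plain library totals it was 0.15. These settings also move the median of all tested genes, to -0.22 and 0.49 from 0.10 as reported. Relative to that median, Ing1 stood at -0.36 as reported, -0.52 with the length trend removed and -0.34 under library totals. Ing2, the close relative of Ing1 in the same deacetylase, had 8.94, 14.3, 8.73 and 18.2 CPM in knockout and 14.3, 15.3, 8.50 and 17.1 CPM in control oocytes. Its libraries varied by about as much within a group as between groups, and its log2 fold change of -0.14 had an interval from -0.96 to 0.69 (adjusted p = 0.822).

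Ing3, a subunit of the NuA4 acetyltransferase, had 108, 80.2, 108 and 63.2 CPM in knockout and 83.9, 87.9, 101 and 74.7 CPM in control oocytes. The control values lay inside the knockout range, and the log2 fold change of 0.05 had an interval from -0.42 to 0.51 (adjusted p = 0.894). Ing5, a subunit of the HBO1 and MOZ/MORF acetyltransferases, had 33.8, 36.4, 45.7 and 52.1 CPM in knockout and 32.1, 70.4, 51.8 and 46.1 CPM in control oocytes. The knockout values lay inside the control range, with a log2 fold change of -0.26 and an interval from -0.84 to 0.33 (adjusted p = 0.520). Ing4, a subunit of the HBO1 acetyltransferase, had 0, 8, 0 and 13 counts in knockout and 0, 8, 2 and 4 counts in control libraries. It was too scarce for a test, and 31.5% of the 75-base stretches of its transcripts recurred in other genes, so that reads could have been lost or misplaced.

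Taf3 fell in knockout oocytes. The gene encodes the TFIID subunit whose PHD finger reads trimethylated H3K4 at promoters, and it lies on chromosome 2 at 9914552 to 10048596 (mm10). It had 352.1, 271.5, 365.9 and 366.6 CPM in knockout and 608.9, 593.8, 573.2 and 502.3 CPM in control oocytes. With composition factors the groups did not overlap, and knockout replicate 2 stood below the other 3 knockout libraries. The groups did overlap in the authors' RPKM, which scale counts per kilobase by library total only. There control replicate 4 (62.8) lay under knockout replicates 1 (66.9) and 4 (64.9). The log2 fold change was -0.75 ± 0.16 (SE, n = 4 per group; adjusted p = 0.00524), or 59.5% of the control level. Of its exon sequence 127 bases overlapped Gm13262 on the opposite strand, which had 34 counts over all libraries. Of the 75-base stretches of Taf3 transcripts, 5.82% recurred in other genes, Gm13262 among them.

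Bptf, the reader subunit of the NURF nucleosome remodeller, also fell. It lies on chromosome 11 at 107033081 to 107132127 (mm10) and had 360.8, 335.8, 333.0 and 338.1 CPM in knockout and 499.0, 533.5, 558.5 and 489.8 CPM in control oocytes. The 4 knockout values were close together and, with composition factors, all lay under the control values. In the authors' RPKM control replicate 4 (28.1) lay under knockout replicates 1 (31.5) and 2 (28.3). The log2 fold change was -0.61 ± 0.14 (SE, n = 4 per group; adjusted p = 0.00782), or 65.7% of the control level. Both smaller falls depended on the scaling. Under plain library totals Taf3 was at -0.36 (adjusted p = 0.110) and Bptf at -0.21 (adjusted p = 0.312), while the median of all tested genes moved to 0.49, against 0.10 with composition factors. Relative to that median, Spin1 stood at -1.51 with composition factors and -1.50 without them, Taf3 at -0.85 in both, and Bptf at -0.71 in both. A change of library scaling shifts all genes by nearly the same amount. The near equality of these values is therefore built in and is no separate test of the falls. With the length trend removed Spin1, Taf3 and Bptf stood at -1.49, -0.69 and -0.33, also relative to the median of all genes.

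Phf2, which joins a PHD finger to a demethylase domain for lysine 9 of histone H3, was scarce. It had 4.43, 2.64, 3.60 and 1.87 CPM in knockout and 6.61, 7.60, 5.03 and 2.80 CPM in control oocytes. Control replicate 4 lay inside the knockout range and the other 3 control libraries lay above it. The log2 fold change of -0.81 had an interval from -2.03 to 0.41 (adjusted p = 0.314), on 154 counts in knockout and 244 counts in control libraries.

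**Figure D2:**
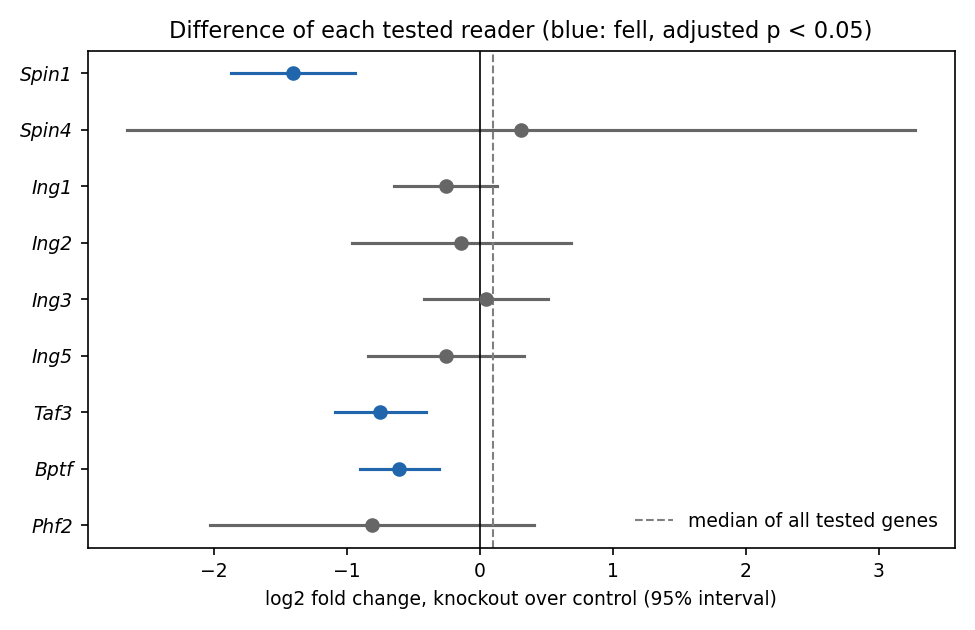
Log2 fold change of knockout over control for the 9 tested readers (horizontal axis), with the 95% interval from edgeR's quasi-likelihood fit; blue marks genes that fell and the dashed line the median of all tested genes, 0.10. Spin1, Taf3 and Bptf lie below 0 with their whole intervals, and Spin4 has the widest interval, from -2.65 to 3.28.

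Among the 9 tested readers 0 rose and 3 fell, a share of 33.3% against the 25.8% of all tested genes that differed in either direction and the 12.2% that fell. Shares of so few genes are not read as a property of readers. At an unadjusted p under 0.05 no tested reader was higher either, and DESeq2 called 0 higher and 3 lower. With composition factors the groups did not overlap in the same 3 genes, as in 31.3% of all tested genes. The median log2 fold change of the 9 was -0.26, and that of all tested genes was 0.10. The authors' deposited table, which lists 2709 genes, held the same 3 readers, with shrunken log2 fold changes of -1.41 for Spin1, -0.78 for Taf3 and -0.64 for Bptf.

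Per kilobase the order of the readers was nearly the same in both groups. From the top it ran Spin1, Ing1, Taf3, Bptf, Ing3, Ing5 and Ing2 in knockout and in control oocytes, and each of these stood above the next in every library. The means ran from 1764 CPM per kilobase for Spin1 to 4.16 for Ing2 in knockout oocytes, and from 4679 to 4.57 in control oocytes. Below them Spin4 and Phf2 averaged 0.624 and 0.596 CPM per kilobase in knockout and 0.503 and 1.05 in control oocytes. The ranges of these 2 genes overlapped in both groups, so their order is not resolved. Ing4 came last, at 0.0680 in knockout and 0.0452 in control oocytes.

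The sequences before the annotated starts of the 3 genes that fell, and of Spin4 as the scarce relative of Spin1, are shown because H3K4 methylation by Setd1 complexes is placed mainly at promoters rich in CG dinucleotides, which their CXXC1 subunit binds. Each is the 250 bases before the start (RefSeq, GRCm38.p6, 5′ to 3′ on the gene's strand), with CG in capitals; CG reads the same on both strands. The windows are chr13:51100630-51100879 on the forward strand for Spin1, chr2:10048610-10048859 on the reverse strand for Taf3, chr11:107132148-107132397 on the reverse strand for Bptf and chrX:95026683-95026932 on the reverse strand for Spin4.
Spin1: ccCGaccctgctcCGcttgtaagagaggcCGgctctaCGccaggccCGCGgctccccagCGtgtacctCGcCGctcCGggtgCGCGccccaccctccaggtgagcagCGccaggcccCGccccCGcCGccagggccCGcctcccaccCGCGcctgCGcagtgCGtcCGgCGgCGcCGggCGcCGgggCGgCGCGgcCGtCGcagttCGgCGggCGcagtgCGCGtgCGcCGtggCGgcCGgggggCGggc
Taf3: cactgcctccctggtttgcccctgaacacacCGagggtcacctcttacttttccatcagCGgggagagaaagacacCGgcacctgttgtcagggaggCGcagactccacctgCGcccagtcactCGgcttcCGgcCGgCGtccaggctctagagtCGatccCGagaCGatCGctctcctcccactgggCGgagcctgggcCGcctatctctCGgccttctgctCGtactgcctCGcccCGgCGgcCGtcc
Bptf: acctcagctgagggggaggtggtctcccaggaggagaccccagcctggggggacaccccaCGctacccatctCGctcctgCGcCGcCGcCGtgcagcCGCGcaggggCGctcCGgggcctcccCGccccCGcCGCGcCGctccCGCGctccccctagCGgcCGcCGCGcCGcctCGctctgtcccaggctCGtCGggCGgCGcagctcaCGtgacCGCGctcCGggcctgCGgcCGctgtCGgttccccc
Spin4: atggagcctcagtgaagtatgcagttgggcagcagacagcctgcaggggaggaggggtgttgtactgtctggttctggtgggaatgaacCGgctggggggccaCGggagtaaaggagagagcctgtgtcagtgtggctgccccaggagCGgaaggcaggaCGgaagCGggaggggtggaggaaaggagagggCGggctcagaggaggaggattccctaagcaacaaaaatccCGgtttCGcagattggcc
The window held 42 CG dinucleotides at Spin1, 21 at Taf3, 34 at Bptf and 8 at Spin4. The other readers had 16 at Ing4, 21 at Ing3, 24 at Ing1 and at Ing2, 26 at Ing5 and 50 at Phf2. Spin1 had 3 annotated windows, Ing1 had 5 and Ing3 had 2, and only the window nearest the start of the counted gene was used. Which start is used in oocytes was not tested. Over 32851 windows of the same length the median was 6, and 92.1% held at least 1 CG. At least as many as at Spin1 were found in 0.864% of windows, and at least as many as at Spin4 in 43.0%. Phf2, with the most CG, and Spin1, with the next most, were among the scarcest and the most abundant of the 10 readers. The 3 genes that fell, at 21 to 42, lay inside the range of those that did not pass the test.

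Among other genes whose proteins read methylated H3K4, 2 rose and 1 fell of 16 tested, a share of 18.75% against 25.8% of all tested genes, with a median log2 fold change of -0.04. Sgf29, the Tudor-domain reader of the SAGA coactivator, rose to 55.7 ± 8.94 CPM in knockout against 15.7 ± 7.92 CPM in control oocytes (SD, n = 4 each; log2 fold change 1.83, adjusted p = 0.00376). Cxxc1, the CG-binding subunit of Setd1 complexes, rose to 66.1 ± 12.2 CPM against 32.1 ± 8.67 CPM in control oocytes (log2 fold change 1.04), a call that was lost with the length trend removed (adjusted p = 0.119). Phf13, a PHD finger reader of trimethylated H3K4, fell to 319 ± 79.6 CPM in knockout against 518 ± 77.8 CPM in control oocytes (log2 fold change -0.70, adjusted p = 0.0246). The call of Phf13 was lost with library totals only (adjusted p = 0.304) and without knockout replicate 1, 2 or 3 or control replicate 2 or 3 (adjusted p from 0.0570 to 0.0781). Of the 3 tested relatives and partners of Phf2, 0 rose and 1 fell, against 25.8% of all tested genes called in either direction. Phf8 and Kdm7a, its relatives, did not pass, with log2 fold changes of 0.26 and -0.35. Arid5b, a DNA-binding partner of PHF2, fell to 17.6 ± 11.3 CPM in knockout against 198 ± 68.4 CPM in control oocytes (log2 fold change -3.49 ± 0.50 (SE), adjusted p = 0.000599).

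A further list held 11 tested genes whose proteins bind H3 with unmethylated lysine 4 or, for Kdm1a, remove methyl groups from lysine 4. Of these, 3 rose and 2 fell, a share of 45.45% against 25.8% of all tested genes, with a median log2 fold change of -0.07. Dnmt3l, the cofactor of de novo DNA methylation, rose in knockout oocytes (1918 counts, against 787 in control libraries; log2 fold change 1.12, adjusted p = 0.00928), a call lost with the length trend removed (adjusted p = 0.0864). Its catalytic partner Dnmt3a fell to 29.3 ± 5.22 CPM in knockout against 55.8 ± 15.8 CPM in control oocytes (log2 fold change -0.93, adjusted p = 0.0204). That call was lost with library totals only (adjusted p = 0.170) and without knockout replicate 1, 2 or 3 or control replicate 2 or 3 (adjusted p from 0.0503 to 0.0722). Aire, best known for tissue antigen expression in the thymus, rose (log2 fold change 2.58, on 410 counts in knockout and 62 in control libraries). The call of Aire was lost without knockout replicate 1 (adjusted p = 0.0590) or 2 (adjusted p = 0.0605). Aire and Dnmt3l lie on opposite strands with 67 bases of exon in common, and the counts used no strand, so reads there cannot be assigned to either. Trim33, a PHD-bromodomain corepressor, fell (log2 fold change -0.90), a call lost without knockout replicate 2 or 4 or control replicate 4 (adjusted p from 0.0549 to 0.0779) and with library totals only (adjusted p = 0.152).

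Among the complexes that carry the ING proteins, SIN3-HDAC is the home of Ing1 and Ing2. Of 14 tested genes of this complex 2 rose and 2 fell, a share of 28.6% that is close to the 25.8% of all tested genes, with a median log2 fold change of -0.15. Sap30, a structural subunit, fell to 170 ± 18.3 CPM in knockout against 323 ± 28.9 CPM in control oocytes (log2 fold change -0.93, adjusted p = 0.00151), and Brms1l, a scaffold subunit, fell with a log2 fold change of -1.18 (adjusted p = 0.0118, and 0.0711 with library totals only). The deacetylase gene Hdac1 rose, on 286 counts in knockout and only 11 in control libraries. Its fitted log2 fold change of 4.57 was 5.78 without control replicate 2, and 29.3% of the 75-base stretches of its transcripts recur in other genes, so its size is uncertain. Brms1 rose (log2 fold change 2.85, adjusted p = 0.0491) on 397 counts in knockout and 48 in control libraries, with 72.0% of its 75-base stretches shared with another gene. The call of Brms1 was lost with median-of-ratios scaling (adjusted p = 0.0505), with the length trend removed (2.22, adjusted p = 0.103) and without any of the 4 knockout libraries or control replicate 1 or 4 (adjusted p from 0.0599 to 0.127), and without control replicate 3 its log2 fold change was 3.65.

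NuA4, the acetyltransferase that holds Ing3, had 5 genes that rose and 2 that fell of 17 tested, a share of 41.2% against 25.8% of all tested genes, with a median log2 fold change of 0.62. Mrgbp, a small chromatin-binding subunit, rose to 91.5 ± 15.4 CPM in knockout against 12.6 ± 3.38 CPM in control oocytes (log2 fold change 2.86, adjusted p = 4.23e-05). Actl6a, an actin-related subunit, was at 37.0 ± 2.13 CPM in knockout and 13.1 ± 3.59 CPM in control oocytes and rose (adjusted p = 0.00251), but shares 447 bases of exon with Mrpl47 on the opposite strand. Morf4l2, a subunit that binds MRGBP, fell to 126 ± 6.84 CPM against 340 ± 46.7 CPM in control oocytes (log2 fold change -1.43, adjusted p = 0.000132), and Mbtd1, a methyl-lysine binding subunit, fell with a log2 fold change of -0.83 (adjusted p = 0.00307). Of 9 tested genes of the HBO1 and MOZ/MORF acetyltransferases, home of Ing4 and Ing5, 1 rose and 2 fell, a share of 33.3% against 25.8% of all tested genes, with a median log2 fold change of -0.155. The scaffold gene Brd1 fell to 219 ± 40.5 CPM in knockout against 401 ± 36.5 CPM in control oocytes (log2 fold change -0.87, adjusted p = 0.00376). Kat7, which encodes the HBO1 enzyme, fell with a log2 fold change of -0.69, a call lost with library totals only (adjusted p = 0.274) and without knockout replicate 1 (adjusted p = 0.0531). Meaf6, a subunit shared with NuA4, rose with a log2 fold change of 1.72 (adjusted p = 0.0143).

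In TFIID, the complex of Taf3, 3 genes rose and 4 fell of 15 tested, a share of 46.7% against 25.8% of all tested genes, with a median log2 fold change of -0.11. With plain library totals and other settings the counts ran from 1 to 4 that rose and from 1 to 7 that fell. Taf9b, Taf4 and Taf7, all subunits of the same complex, fell with log2 fold changes of -0.92, -0.81 and -0.77. Taf9b was at 263 ± 65.1 CPM in knockout and 496 ± 71.5 CPM in control oocytes (SD, n = 4 each; adjusted p = 0.00593). The calls of Taf4 and Taf7 were lost with library totals only (adjusted p = 0.120 and 0.0918). Taf8, the subunit that pairs with TAF10, rose to 130 ± 9.33 CPM in knockout against 89.1 ± 3.78 CPM in control oocytes (log2 fold change 0.54, adjusted p = 0.0252). Its call was lost without filter (adjusted p = 0.0617), with the length trend removed (0.05, adjusted p = 0.836) and without knockout replicate 1, 3 or 4 or control replicate 1 (adjusted p from 0.0501 to 0.0678).

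Among 5 tested genes of NURF and the ISWI ATPases, which act with Bptf, 0 rose and 3 fell, a share of 60.0% of few genes against 25.8% of all tested genes, with a median log2 fold change of -0.66. At an unadjusted p under 0.05 none of the 5 was higher, nor was any called higher by DESeq2. Cecr2, a bromodomain partner of ISWI ATPases, fell to 512 ± 84.7 CPM in knockout against 1090 ± 43.9 CPM in control oocytes (log2 fold change -1.09, adjusted p = 0.000641). Hmgxb4, an HMG-box protein found with NURF in human cells, fell with a log2 fold change of -0.99 (adjusted p = 0.00154). Smarca5, the ISWI ATPase SNF2H, fell to 248 ± 42.1 CPM in knockout against 393 ± 44.6 CPM in control oocytes (log2 fold change -0.66, adjusted p = 0.0146), a call lost with library totals only (adjusted p = 0.180) and without knockout replicate 2 (adjusted p = 0.0571). Of the 75-base stretches of Smarca5, 22.2% recur in other genes, mostly pseudogenes. Smarca1, the ATPase of NURF itself, had 0 counts in the knockout and 10 counts in the control libraries.

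**Figure D3:**
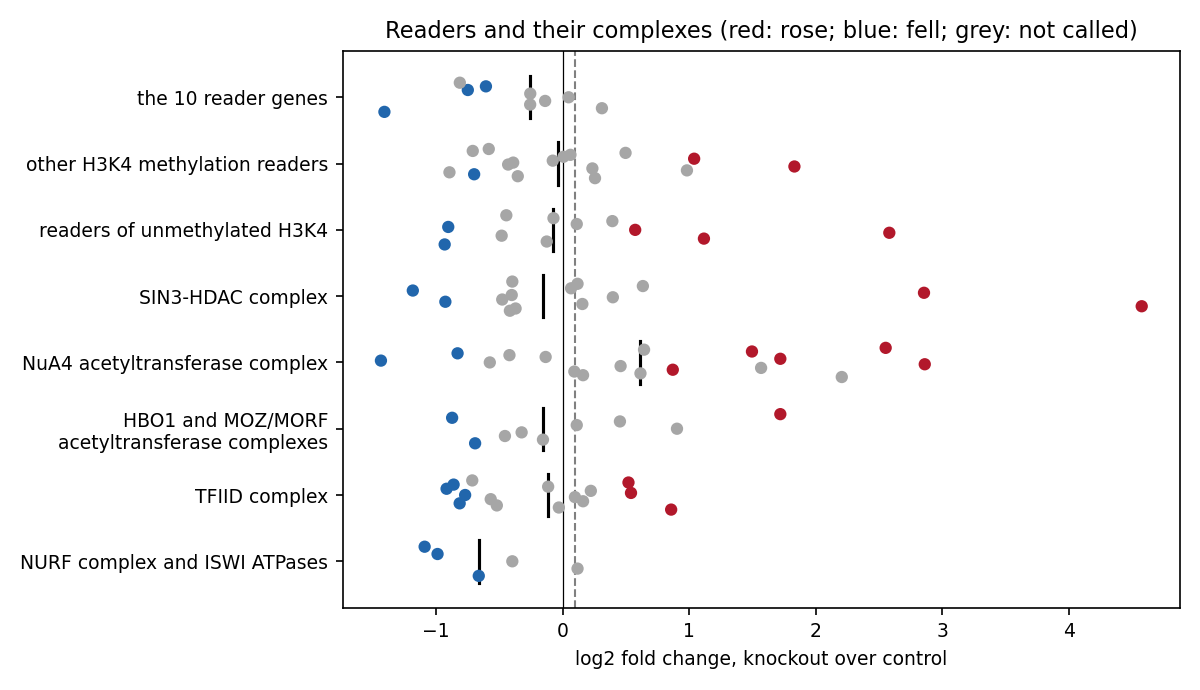
Log2 fold change of knockout over control (horizontal axis) for each tested gene of the reader list and of 7 lists of related readers and complexes; red points rose, blue points fell, grey points were not called, black bars are list medians and the dashed line is the median of all tested genes, 0.10. Points of each list lie on both sides of the dashed line, with the list median highest for NuA4, 0.62, and lowest for NURF with the ISWI ATPases, -0.66.

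Over all related lists together, with a shared gene counted once, 85 genes were tested, of which 15 rose and 17 fell, or 37.6% against 25.8% of all tested genes, with a median log2 fold change of -0.08. Calls were also more frequent among genes of higher level. In the refit limited to at least 10 CPM in 4 libraries, 1403 genes rose and 1093 fell of 6577 tested. The shares of the lists were not compared with genes of like level, so they are not read as an excess. The genes most like Spin1 in their pattern over the 8 libraries, by the Pearson correlation of log2(CPM + 1) among 6164 genes of at least 10 CPM, were Eif4a2 (0.998), Mat2b (0.995), Strn (0.993), Mkln1 (0.990) and Kdelr2 (0.989). The 8 points of each correlation fall into the 2 groups and share their libraries and depth, so the values only describe. Because these genes were chosen for following Spin1, their lower level in knockout is set by the choice and is no separate result. Eif4a2, which encodes an RNA helicase of translation initiation, was at 79.7 ± 35.2 CPM in knockout and 431 ± 138 CPM in control oocytes (log2 fold change -2.44), and 6 annotated genes, Snord2 and Rfc4 among them, share exon sequence with it. Strn, which encodes the phosphatase adaptor striatin, was at 942 ± 319 CPM in knockout and 4955 ± 1654 CPM in control oocytes (log2 fold change -2.40). Mkln1, a cytoplasmic kelch-repeat protein gene, was at 85.6 ± 17.6 CPM in knockout and 342 ± 76.0 CPM in control oocytes, and Kdelr2, a receptor that returns proteins to the endoplasmic reticulum, had a log2 fold change of -1.10. Mat2b, the regulatory subunit of the enzyme that makes S-adenosylmethionine, had one of -0.58, which did not pass with library totals only (adjusted p = 0.229).

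**Figure D4:**
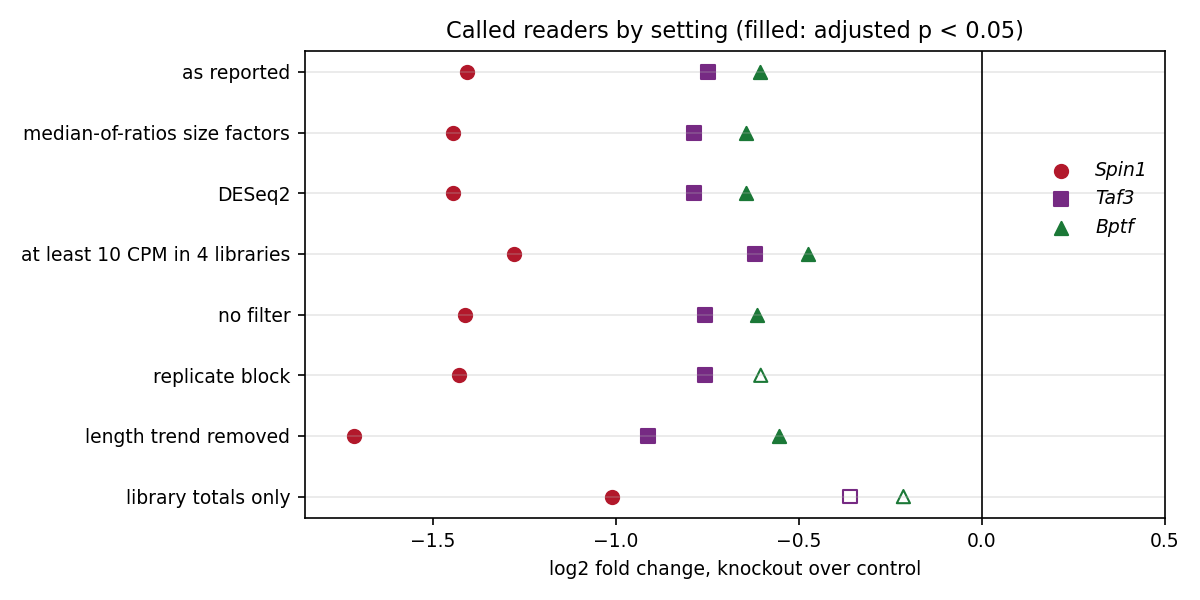
Log2 fold change of knockout over control (horizontal axis) for Spin1, Taf3 and Bptf under each way of scaling, filtering and fitting the counts (rows); filled symbols have an adjusted p under 0.05. Spin1 is filled in every row, from -1.72 to -1.01, whereas Taf3 and Bptf are open with library totals only and Bptf also with the replicate block, a fit that treats same-numbered oocytes as pairs.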

How the data were processed

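cDNA of 8 single oocytes was made and amplified by the SMARTer method and sequenced as 75-base single reads, per the labels' protocols. Per the submitters' processing notes, the authors aligned reads to mm10 with GSNAP and obtained whole-number counts per gene with featureCounts 1.4.4 on Ensembl release 69, without strand and with a minimum mapping quality of 1. The authors' deposited comparison table (DESeq2 1.3.79, per the submitters' processing notes) gives normalized signal, RPKM, log2 fold changes, their error as a score, and p-values for 2709 genes, all with an adjusted p of at most 0.009996. Only its log2 fold changes of the readers and its RPKM values of Taf3 and Bptf are quoted.

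The counts were tested with edgeR 4.0.16 (quasi-likelihood, TMM scaling, filterByExpr, genotype only, all 8 libraries), with Benjamini-Hochberg adjustment over 11066 genes and a threshold of 0.05. The code was tested on simulated data. A floor of 3 counts equals 0.222 to 0.316 CPM. Libraries of a group correlated at 0.969 to 0.980 and differed by more than counting noise. Of the gene IDs, 35449 were given symbols by matching an ID-to-name table. Members and gene lists were chosen with earlier results of these data known. Named in the text are all members, Setd1b, up to 4 called genes per list by smallest p (marker lists excepted), and the 5 genes most like Spin1. Spindoc, the Spin2 genes, Phf8, Kdm7a, Smarca1 and the single genes of the marker lists were added to these after their values were seen. Kdm1a is named only to describe its list. Repeats of 75 bases were sought in GENCODE M21 transcripts. Alternatives were other scalings and filters, DESeq2 1.42.0, a replicate block and leaving out each library. Bap18 of the NURF list was not matched and was not analysed here.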

Additional observations from a re-analysis of the deposited data

Results flagged for a closer look

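In 20 groups of 4 values, the CPM of each tested reader and the share of Spin1 in all counts, 3 libraries stood far from the other 3 of their group, past Dixon's 95% critical value for the gap to the nearest library. Chance flags about 1 in 20 such groups. Ing1 had 453.3 CPM in knockout replicate 4, against 597.8 to 622.2 CPM in the other knockout libraries. Ing1 also had 510.0 CPM in control replicate 3, against 717.5 to 760.3 CPM in the other control libraries. Taf3 had 271.5 CPM in knockout replicate 2, against 352.1 to 366.6 CPM in the other knockout libraries; without that library its log2 fold change was -0.65 (edgeR adjusted p = 0.0230).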

How the results depend on the processing

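Spin1 kept its direction and its call in all 15 refits, with log2 fold changes from -1.72 to -1.01 and, with 1 library left out, from -1.62 to -1.29. Its share of all counts differed by -0.996 to -0.821 percentage points with 1 library left out (exact p = 0.0571, the smallest that 3 against 4 allows). The readers that fell numbered 1 with library totals only, 2 with the replicate block (Spin1 -1.43; Bptf lost at an adjusted p of 0.0502), 4 with the length trend removed, and 3 without any 1 library. Over all genes, 2382 were higher and 504 lower with library totals only, 1018 and 2331 with the length trend removed, 1090 and 861 with the replicate block, and 747 and 644 at an adjusted p under 0.01, against 1503 and 1347 as reported; DESeq2 gave 1809 and 1753. Leaving out 1 library gave 1012 to 1597 higher and 837 to 1244 lower, the fewest without knockout replicate 2.

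The sign turned in 5 readers, none of which was called as reported. Ing1, Ing2 and Ing5 were at 0.15, 0.27 and 0.11 with library totals only, and Spin4 and Ing3 at -0.037 and -0.23 with the length trend removed. The median gene itself shifts there, from 0.10 as reported to 0.49 and -0.22 in turn. Measured from it, Ing1, Ing2 and Ing5 stood at -0.36, -0.24 and -0.36 as reported. With library totals only they stood at -0.34, -0.22 and -0.38. Spin4 and Ing3, measured likewise, stood at 0.21 and -0.053 as reported. With the length trend removed they stood at 0.185 and -0.011. On this scale none of these signs turned. With 1 library left out, the log2 fold change itself ran from -0.11 to 1.22 for Spin4. For Ing2 it ran from -0.37 to 0.0036 and for Ing3 from -0.06 to 0.18. The cause was not tested. The replicate block also ended the calls of Setd1b (adjusted p = 0.0700), Phf13 (0.0712), Dnmt3a (0.0699), Brms1 (0.0693, log2 fold change 3.67), Meaf6 (0.0508), Taf8 (0.0963) and Mat2b (0.0674). Over the refits the genes that rose and that fell numbered 1 to 2 and 0 to 4 for other readers, 1 to 3 and 0 to 3 for readers of unmethylated H3K4, 0 to 3 and 1 to 7 for SIN3-HDAC, 3 to 5 and 2 to 4 for NuA4, 0 to 1 and 1 to 3 for HBO1 and MOZ/MORF, and 0 and 2 to 4 for NURF. Of 609 pairs of a named gene and a setting, 540 kept direction and side of the threshold, 55 kept direction only and lost the call, 13 changed sign and 1 gained a call. Same-numbered knockout and control oocytes deviated together by correlations of -0.157 to -0.040, which gave no sign of pairs, and no label states pairs. The numbers were therefore not used to pair them. So few pairs cannot show whether same-numbered oocytes share a weak factor. At 3 counts per library as the floor, Ing4 and Spin4 were too scarce to resolve any but very large differences.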
